A study of Gallus gallus with 54 samples.

Results

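Retinas of chicks treated with a muscarinic antagonist, atropine or pirenzepine, were set against retinas of chicks treated with ADTN or TPMPA, all collected at 24 h. Of the 54 RNA-seq libraries of the study, 16 enter this comparison: 4 of atropine and 4 of pirenzepine on one side, 4 of ADTN and 4 of TPMPA on the other. Each drug has equal weight, and the comparison runs over all 15746 genes with enough counts. Per the labels, all birds were male White Leghorn chicks of post-hatch day 8, reared on 12 h of light per day. All 4 groups wore diffusers, which blur vision and cause form-deprivation myopia (FDM). All were injected into the vitreous at the start and once more 4 h before collection, so diffuser wear and the injection schedule are common to both sides. Whether the response to injection was equal in all libraries was not tested. No group injected with vehicle alone is among the 54 libraries. The same drugs were also given as a single injection in 16 other libraries collected at 4 h on post-hatch day 7. The labels do not say whether libraries came from separate birds, so p-values measure the spread between samples, which may be technical.

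Acetylcholine in the retina is released by starburst amacrine cells and acts in part through muscarinic receptors, which couple to G proteins. Atropine blocks these receptors broadly, and pirenzepine prefers some subtypes over others. Both drugs slow the growth of myopic eyes in chicks. ADTN activates dopamine receptors, and TPMPA blocks the GABA-C receptors through which GABA inhibits bipolar cells; both have also been studied as brakes on eye growth.

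Total counts of the 16 libraries ran from 9.97 to 24.8 M. Genes of photoreceptors, Mueller glia and inner retina were abundant throughout: RCVRN, a calcium sensor of photoreceptors, had 137 to 306 CPM (counts scaled to library size), and RLBP1, a retinoid carrier of Mueller glia, had 259 to 495 CPM. Blood vessel genes varied within groups, and CDH5, a defining endothelial gene, had 0 to 28.8 CPM in antagonist libraries and 0 to 26.7 CPM in ADTN and TPMPA libraries. The mean log2(CPM + 1) over vessel and pecten genes was highest in pirenzepine library 1 (4.36) and ADTN library 2 (4.20). Since whole retina was sequenced, fewer cells of a type and less RNA per cell cannot be told apart.

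With antagonists, 160 genes were called (1.02% of genes tested): 97 rose (0.616%) and 63 fell (0.4%), by edgeR's quasi-likelihood test at an adjusted p under 0.05. The balance and the total depend on the fit: limma voom gave 73 calls, 32 higher and 41 lower, a fit of the 4 groups alone gave 114, 21 higher and 93 lower, and DESeq2 gave 308, 164 higher and 144 lower. The risen genes included mediators of inflammatory signalling (TNFRSF1A, MYD88, SOCS3, STAT3, IRF1 and IRF8), and the fallen ones included nuclear receptors (RARA, THRA) and a guidance cue (NTN4). Rises were the larger changes. Their median log2 change was 0.65 (range 0.19 to 2.69), with 29 genes past 2-fold, whereas falls had a median of -0.39 (-1.32 to -0.22), with 2 past 2-fold. The median over all genes tested was 0.00, with 50.4% of genes positive. Both antagonist means lay on the same side of both other means for 95 of the 97 risen and 62 of the 63 fallen genes, a count that the choice of genes largely fixes; of all genes tested, 18.2% had both above and 19% both below. Of the called genes 25 carry no symbol in the deposited table.

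The libraries of one drug were not alike over the risen genes. Taking each library's difference from the median of the 8 ADTN and TPMPA libraries, the median over the 97 genes was 0.79 and 0.57 in atropine libraries 2 and 4, and 0.08 and 0.05 in atropine libraries 1 and 3. It was 0.90, 0.86 and 1.05 in pirenzepine libraries 2 to 4 and 0.25 in pirenzepine library 1, which was the lowest of its group for 78 of the 97 genes. Among the others it ran from -0.21 in ADTN library 4 to 0.18 in ADTN library 3. Atropine libraries 1 and 3 thus lay within the ADTN and TPMPA range. Over the 63 fallen genes all 8 antagonist libraries lay below, at -0.26 to -0.53, against -0.10 to 0.09 in the other libraries. These positions describe genes chosen by this comparison and carry no test.

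**Figure D1:**
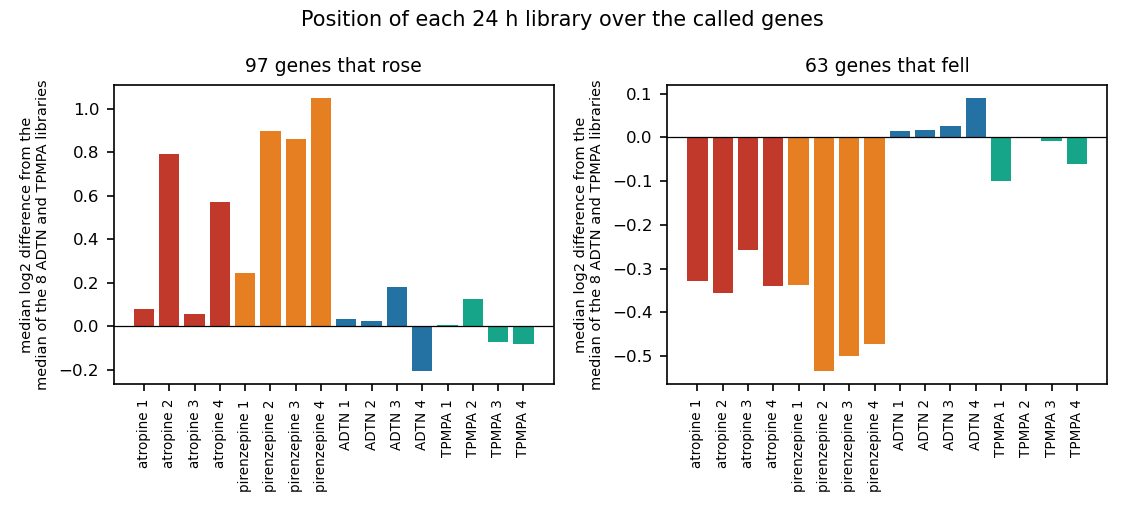
Bars give, for each 24 h library, the median over the 97 risen genes (left) or the 63 fallen genes (right) of its log2 difference from the median of the 8 ADTN and TPMPA libraries. Atropine 1 and 3 stand at 0.08 and 0.05 over the risen genes, beside 0.79 and 0.57 for atropine 2 and 4, while all antagonist bars are at or below -0.26 over the fallen genes.

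The number of calls depended on single libraries. It was 53 without atropine 2, 59 without atropine 4, 68 without pirenzepine 2, 78 without TPMPA 3, 91 without pirenzepine 4, 104 without ADTN 2, 105 without TPMPA 4 and 306 without pirenzepine 1. In all 16 fits that left out a library, 43 of the 160 genes passed, 24 that rose and 19 that fell; each of the remaining genes missed the threshold in at least 1 such fit. Fitting the 4 groups alone kept 11 of the 97 risen and 42 of the 63 fallen genes, and limma voom kept 31 and 41. MYD88, IRF8, FAM83B, NTN4, NUAK2, SCRT2, HEXIM1, ERMN, ESPN, ADGRB2 and ENSGALG00000037816 passed in all 16 fits that left out a library and in all 13 alternative settings. For the other called genes given with their own pooled adjusted p, the settings that ended a call stand beside it. A ganglion cell score as covariate is left out there and given with that score. MCM3, HSD17B12, ARRDC3, TNS3, GADD45A, KIRREL1, OAF and GAREM2 are named below without such values. Each of them missed the threshold in at least 1 setting. The setting without the 5 libraries highest in small structural RNA left ADTN with library 4 alone. A call lost there may reflect that library and not small RNA, which was not tested.

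Among receptors and adaptors of inflammatory signalling, TNFRSF1A, the main receptor for tumour necrosis factor (ENSGALG00000039461, galGal5 chromosome 1, 79396754 to 79409687), was higher with antagonists. TNFRSF1A had 26.2, 62.5, 13.1 and 50.01 CPM in atropine libraries 1 to 4, and 30.4, 86.3, 73.7 and 85.8 CPM in pirenzepine libraries 1 to 4. It had 25.4, 31.1, 29.5 and 14.5 CPM in ADTN libraries and 12.1, 24.1, 6.79 and 12.7 CPM in TPMPA libraries. Apart from atropine 1 and 3 and pirenzepine 1, the antagonist libraries lay above every ADTN and TPMPA library. TNFRSF1A averaged 53.5 ± 28.1 CPM with antagonists and 19.5 ± 9.09 CPM with ADTN or TPMPA (SD, n = 8 each, over both drugs of a side), a log2 change of 1.45 ± 0.26 (SE, adjusted p = 0.0042, and 0.0747 in a fit of the 4 groups alone).

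MYD88, the adaptor that carries signals from Toll-like and interleukin-1 receptors (chromosome 2, 4841184 to 4853799), had 28.6, 48.1, 32.6 and 40.4 CPM in atropine libraries and 30.9, 75.9, 45.1 and 74.0 CPM in pirenzepine libraries. It had 26.1, 30.4, 27.8 and 27.7 CPM in ADTN libraries and 23.6, 29.1, 17 and 20.8 CPM in TPMPA libraries. The sides overlapped only through atropine 1, which lay below ADTN 2 and TPMPA 2. Its log2 change was 0.87 ± 0.15 (adjusted p = 0.0042). TNFRSF11B, osteoprotegerin, a soluble decoy receptor for the cytokine RANKL (chromosome 2, 136408844 to 136425722), had 19.7, 60.8, 9.34 and 29.5 CPM in atropine libraries and 22.3, 60.9, 47.8 and 67.2 CPM in pirenzepine libraries. It had 9.36, 23.2, 10.9 and 6.43 CPM in ADTN libraries and 6.96, 11.5, 6.63 and 4.22 CPM in TPMPA libraries. Atropine 1 and pirenzepine 1 lay below ADTN 2 alone, and atropine 3 lay among the ADTN and TPMPA libraries. The log2 change of TNFRSF11B was 2.00 ± 0.41 (adjusted p = 0.00816, and 0.0587 by limma voom).

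IRF8, an interferon-regulated transcription factor of myeloid cells and microglia (chromosome 11, 17821801 to 17827332), had 17, 23.7, 17 and 21.8 CPM in atropine libraries and 23.4, 31.4, 34.8 and 41.3 CPM in pirenzepine libraries. It had 18, 20.8, 17.6 and 12.0 CPM in ADTN libraries and 14.1, 14.3, 13.3 and 17.1 CPM in TPMPA libraries. Every pirenzepine library was above every ADTN and TPMPA library, while atropine 1 and 3 were not. The log2 change of IRF8 was 0.68 ± 0.14 (adjusted p = 0.00762). Of 23 leukocyte markers tested it was the single called gene, where 1.02% of all genes tested were called. The leukocyte list as a whole, a mean log2(CPM + 1), was 2.38 with antagonists (2.00 to 3.30) and 2.19 with ADTN or TPMPA (1.99 to 2.82), a difference that did not pass an exact two-sided permutation test over 8 against 8 libraries (p = 0.352, adjusted p = 0.704 over 10 scores). Its part in the IRF8 result was not tested.

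SOCS3, the feedback inhibitor of cytokine receptors that signal through STAT3, had one of the largest rises and a wide spread. SOCS3 had 3.47, 55.8, 2.69 and 28.3 CPM in atropine libraries and 12.2, 80.5, 45.7 and 55.6 CPM in pirenzepine libraries. It had 6.96, 13.7, 21.5 and 0.402 CPM in ADTN libraries and 8.04, 10.6, 1.58 and 1.12 CPM in TPMPA libraries. Atropine 1 and 3 and pirenzepine 1 lay among the ADTN and TPMPA libraries. Retinas of uninjected birds with diffusers had 0.536 to 1.66 CPM of SOCS3, a level that ADTN 1 to 3 and TPMPA 1 and 2 also exceeded. The part of injection in these levels was not tested. The log2 change of SOCS3 was 2.13 ± 0.53 (adjusted p = 0.0347). That call was lost without atropine 2 or 4, pirenzepine 2, 3 or 4, ADTN 1, 2 or 4, or TPMPA 3 or 4 (adjusted p up to 0.158). It was also lost with a replicate block (0.0737), by limma voom (0.164) and with the 4 groups alone (0.205). STAT3, its transcription factor, rose by 0.53 ± 0.13 (adjusted p = 0.0272), averaging 429 ± 131 CPM with antagonists and 295 ± 73.4 CPM with ADTN or TPMPA. Retinas of uninjected birds with diffusers had 194 to 226 CPM of STAT3, where ADTN libraries had 196 to 400 CPM and TPMPA libraries 218 to 336 CPM. The STAT3 call was lost without atropine 2 or 4, pirenzepine 2, 3 or 4, ADTN 4, or TPMPA 3 or 4 (adjusted p up to 0.105), by limma voom (0.0542) and with the 4 groups alone (0.18).

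Of 29 tested genes of the cytokine, STAT and NF-kB list, 5 rose (STAT3, SOCS3, IRF1, TNFRSF1A and SDC1) and none fell, with a median log2 change of 0.25. The list was chosen with earlier results of these data known, and STAT3, SOCS3 and SDC1 were also followed genes. Its count is therefore no test of these pathways. IRF1, an interferon-induced activator, rose by 1.86 ± 0.48 (adjusted p = 0.0403). SDC1, a cell-surface heparan sulfate proteoglycan, rose by 1.99 ± 0.47 (adjusted p = 0.0253). SDC1 had 2.88 to 109 CPM in antagonist libraries, 1.61 to 29.6 CPM in ADTN libraries and 3.39 to 18.2 CPM in TPMPA libraries. Uninjected birds with diffusers had 1.21 to 2.84 CPM. The calls of IRF1 and SDC1 were each lost without atropine 2 or 4, pirenzepine 2 or 4, or TPMPA 1, 3 or 4; IRF1 was also lost without ADTN 1, 3 or 4, and SDC1 without ADTN 2 (adjusted p up to 0.116 for both). Limma voom (0.256 and 0.229) and the 4 groups alone (0.124 and 0.209) also ended the calls of IRF1 and SDC1, as did no low-count filter for IRF1 (0.0576) and a replicate block for SDC1 (0.0543). Of 24 interferon response genes 2 rose (IRF1 and IRF8) and none fell, and 22 had positive changes, with a median of 0.51. Over all genes tested, 0.616% rose, 0.4% fell and 50.4% had positive changes. Lists of other cell types had positive medians too: 0.42 over 23 leukocyte genes (19 positive, IRF8 called) and 0.62 over 23 vessel and pecten genes (19 positive, KDR called), and their part in the cytokine and interferon values was not tested. Outside the lists, IFNAR1, a subunit of the type I interferon receptor, rose by 0.37 ± 0.09 (adjusted p = 0.0323). MAP3K14, a kinase of non-canonical NF-kB signalling, rose by 0.34 ± 0.09 (adjusted p = 0.038), and CD274, the immune checkpoint ligand PD-L1, by 1.38 ± 0.29 (adjusted p = 0.00978, and 0.0556 without atropine 2). Limma voom and the 4 groups alone ended the calls of IFNAR1 (0.0594 and 0.085), MAP3K14 (0.0786 and 0.104) and CD274 (0.168 and 0.104), and IFNAR1 was not called without the 5 libraries highest in small structural RNA (0.228). IFNAR1 was not called without atropine 2 or 4, pirenzepine 2 or 4, ADTN 1, 2 or 3, or TPMPA 1 or 3 (adjusted p up to 0.109). MAP3K14 was not called without atropine 2 or 4, pirenzepine 2, 3 or 4, ADTN 1, 2 or 4, or TPMPA 1, 3 or 4 (adjusted p up to 0.129). The genes outside the lists here and below were chosen after their values were seen.

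**Figure D2:**
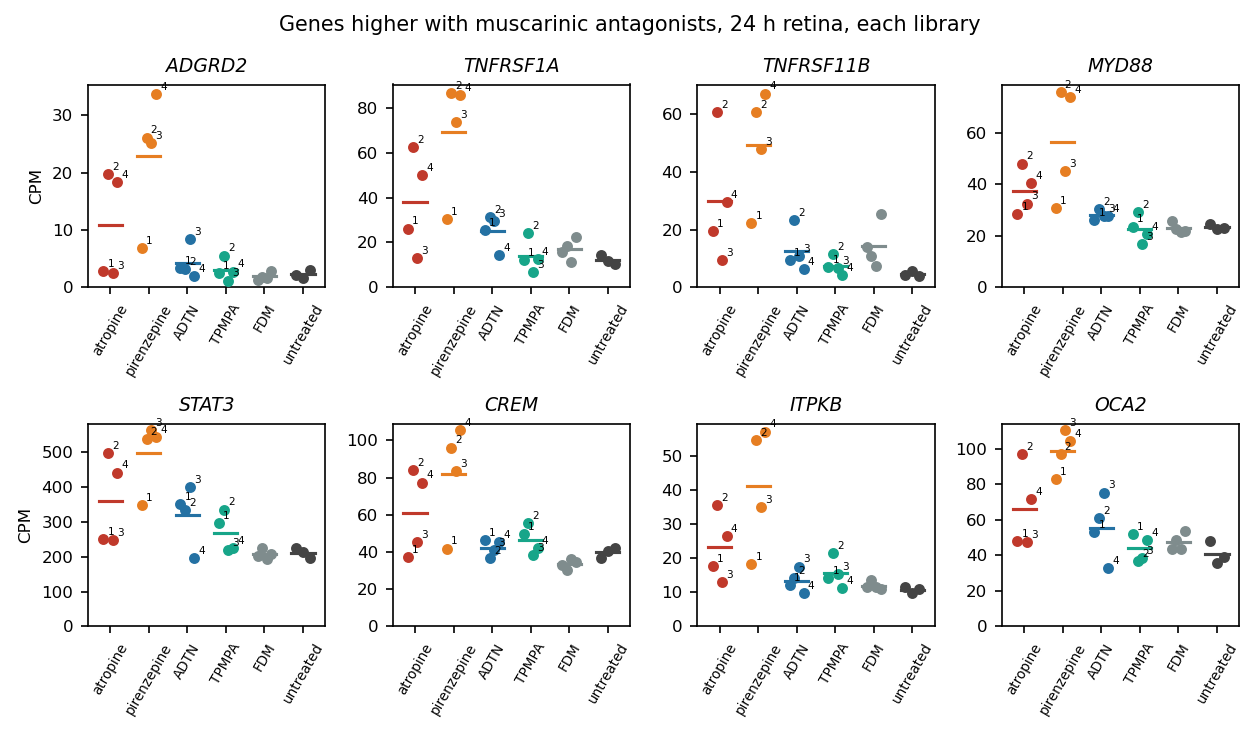
Points give CPM (linear axes from 0) of 8 risen genes in each 24 h library, with replicate numbers for the injected groups, and lines give group means; FDM and untreated birds were not injected. In most panels pirenzepine 2 to 4 and atropine 2 and 4 are the high libraries, as in TNFRSF1A at 50.01 to 86.3 CPM, while atropine 1 and 3 sit near the ADTN and TPMPA points.

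The largest rises included surface molecules and protein-modifying enzymes. ADGRD2, an adhesion G protein-coupled receptor (ENSGALG00000001094, chromosome 17, 9890242 to 9912922), had 2.82, 19.8, 2.47 and 18.4 CPM in atropine libraries and 6.86, 26.1, 25.2 and 33.8 CPM in pirenzepine libraries. It had 3.43, 3.20, 8.41 and 1.91 CPM in ADTN libraries and 2.45, 5.55, 1.18 and 2.74 CPM in TPMPA libraries. Pirenzepine 2 to 4 and atropine 2 and 4 stood above all others, and the log2 change was 2.14 ± 0.36 (adjusted p = 0.00291, but 0.0763 by limma voom and 0.0773 with the 4 groups alone). Retinas of birds that wore a diffuser without injection averaged 1.90 CPM of ADGRD2. GLDN, gliomedin, a protein that clusters sodium channels at nodes of Ranvier in mammals, had the largest rise with a symbol, 2.69 ± 0.56 (adjusted p = 0.00926, but 0.166 by limma voom and 0.0603 with the 4 groups alone; the estimate ran from 2.25 to 6.57 over the alternatives), with 0.322 to 16.6 CPM in antagonist libraries and 0 to 2.96 CPM in ADTN and TPMPA libraries. PADI3, a peptidylarginine deiminase that converts arginine in proteins to citrulline, averaged 261 ± 155 CPM with antagonists and 107 ± 42.5 CPM with ADTN or TPMPA, a log2 change of 1.21 ± 0.25 (adjusted p = 0.00895, but 0.12 with the 4 groups alone). Its neighbour cPAD2, listed on the same chromosome 21, rose by 0.96 ± 0.21 (adjusted p = 0.0122, up to 0.0513 without atropine 2 or pirenzepine 4, 0.0543 by limma voom and 0.0824 with the 4 groups alone); the 2 genes are of one family, and the labels do not state how reads shared between them were counted.

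ITPKB, a kinase that phosphorylates inositol trisphosphate, the messenger downstream of Gq-coupled receptors (chromosome 3, 12526246 to 12572836), had 17.6, 35.5, 13.0 and 26.6 CPM in atropine libraries and 18.3, 54.6, 35.0 and 57.1 CPM in pirenzepine libraries. It had 12.2, 14.2, 17.5 and 9.65 CPM in ADTN libraries and 14.2, 21.4, 15.3 and 11.2 CPM in TPMPA libraries. Atropine 3 lay among the ADTN and TPMPA libraries, and TPMPA 2 also reached past atropine 1 and pirenzepine 1. The log2 change of ITPKB was 1.09 ± 0.20 (adjusted p = 0.00534, but 0.0583 with the 4 groups alone). CBFB, the partner subunit of RUNX transcription factors, rose by 1.15 ± 0.21 (adjusted p = 0.00534). EZR, ezrin, which ties membranes to actin, rose by 0.76 ± 0.14 (adjusted p = 0.00534). VDR, the vitamin D receptor, rose by 0.81 ± 0.16 (adjusted p = 0.00756). The 4 groups alone did not call CBFB (0.119), EZR (0.104) or VDR (0.104), and limma voom called neither CBFB (0.0539) nor VDR (0.0501). CREM, a transcription factor that responds to cyclic AMP, averaged 71.3 ± 26.2 CPM with antagonists and 44.4 ± 6.11 CPM with ADTN or TPMPA, a change of 0.67 ± 0.14 (adjusted p = 0.00978, and 0.0501 without atropine 2 and 0.112 with the 4 groups alone).

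Light detection and pigment genes each had a single call. OPN4-1, a melanopsin, had 72.5, 104, 103 and 104 CPM in atropine libraries and 106, 91.2, 105 and 88.1 CPM in pirenzepine libraries. It had 56.6, 50.1, 54.7 and 56.4 CPM in ADTN libraries and 67.0, 100.4, 89.2 and 108 CPM in TPMPA libraries. All antagonist libraries were above all ADTN libraries but not above the TPMPA ones, and OPN4-1 also differed between ADTN and TPMPA (log2 change -0.75 ± 0.14, adjusted p = 0.00628). Its pooled change of 0.46 ± 0.10 (adjusted p = 0.00926) was thus 0.82 and 0.84 for atropine and pirenzepine against ADTN, and 0.07 and 0.10 against TPMPA. Without the 5 libraries highest in small structural RNA its adjusted p was 0.0574. OPN4-1 was the single called gene of 27 in the clock and melatonin list. OCA2, a melanosome membrane protein, averaged 82.4 ± 24.6 CPM with antagonists and 49.8 ± 14 CPM with ADTN or TPMPA, a change of 0.70 ± 0.13 (adjusted p = 0.00506, but 0.0747 with the 4 groups alone). It went against most of the other pigment genes: of 18 tested only OCA2 was called, 4 had positive changes, and the list's median was -0.48. Over all genes tested, 0.616% rose and 50.4% had positive changes. RPE65, a defining gene of the pigment epithelium, which adheres to the retina to a varying extent, had 57.1 to 308 CPM in antagonist libraries and 143 to 459 CPM in the others (adjusted p = 0.226).

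The called falls were smaller than the called rises and, over the genes so chosen, more even across libraries. For 15 of the 63 fallen genes every antagonist library lay below every ADTN and TPMPA library, where 0.178% of all genes tested did so, and for 2 of the 97 risen genes every one lay above, where 0.0381% did. These genes were chosen by the same libraries, which favours such separation, so nothing is read from these counts. RARA, a nuclear receptor for retinoic acid (ENSGALG00000037935, chromosome 27, 4830348 to 4836063), had 70.0, 67.6, 62.4 and 67.5 CPM in atropine libraries and 64.7, 58.4, 60.4 and 59.2 CPM in pirenzepine libraries. It had 92.0, 92.6, 97.3 and 83.6 CPM in ADTN libraries and 71.0, 85.1, 87.0 and 72.6 CPM in TPMPA libraries. The sides did not overlap, with TPMPA 1 and atropine 1 nearest to each other. RARA averaged 63.8 ± 4.31 CPM with antagonists and 85.1 ± 9.37 CPM with ADTN or TPMPA (log2 change -0.42 ± 0.09, adjusted p = 0.00816, and 0.0563 without the 5 libraries highest in small structural RNA).

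CYP26A1, an enzyme that degrades retinoic acid and a retinoic acid target gene, was the other fallen gene of the retinoic acid list. CYP26A1 had 3.71, 5.18, 13.0 and 3.96 CPM in atropine libraries and 4.68, 2.1, 3.77 and 3.48 CPM in pirenzepine libraries. It had 6.68, 7.53, 7.17 and 11.9 CPM in ADTN libraries and 12.4, 7.94, 12.8 and 9.13 CPM in TPMPA libraries. Atropine 3 was the highest of the 16 and the other 7 antagonist libraries lay below all the others. The change was -0.96 ± 0.22 (adjusted p = 0.0157), a call lost without atropine 2 or 4 or pirenzepine 2 (adjusted p up to 0.0615), by limma voom (0.0539) and with the 4 groups alone (0.089). Of the 17 retinoic acid genes tested 2 fell, none rose and 3 had positive changes, with a median of -0.27. Over all genes tested, 0.4% fell, 0.616% rose and 50.4% had positive changes. Some members, such as STRA6, the receptor that takes up retinol, are also high in pigment epithelium; STRA6 averaged 82.9 ± 43.5 CPM with antagonists and 156 ± 64.1 CPM with ADTN or TPMPA without passing (adjusted p = 0.351). The pigment score was 4.82 with antagonists (4.11 to 5.57) and 5.23 with ADTN or TPMPA (4.68 to 5.67; exact permutation p = 0.0749, adjusted p = 0.25), and its part in the retinoic acid values was not tested.

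THRA, the thyroid hormone receptor alpha gene (chromosome 27, 4626754 to 4775528), had 51.4, 53.5, 55.2 and 52.0 CPM in atropine libraries and 52.5, 43.5, 47.1 and 50.8 CPM in pirenzepine libraries. It had 60.4, 60.9, 59.9 and 68.3 CPM in ADTN libraries and 64.8, 69.7, 68.0 and 67.1 CPM in TPMPA libraries. The sides did not overlap, and the change was -0.35 ± 0.07 (adjusted p = 0.0095). The THRA gene model overlaps others, CSF3 among them, so its counts may include theirs. NTN4, netrin-4, a secreted laminin-related guidance cue (chromosome 1, 45599391 to 45634244), had 8.46, 9.67, 8.97 and 6.92 CPM in atropine libraries and 7.03, 7.75, 4.41 and 6.72 CPM in pirenzepine libraries. It had 15.4, 15.7, 14.1 and 14.8 CPM in ADTN libraries and 10.3, 9.48, 11.1 and 9.77 CPM in TPMPA libraries. The sides touched only at atropine 2 and TPMPA 2, and the change was -0.74 ± 0.13 (adjusted p = 0.00417).

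NUAK2, a kinase related to AMPK (chromosome 26, 2074752 to 2082974), had 2.50, 1.37, 3.21 and 2.26 CPM in atropine libraries and 2.43, 2.02, 2.68 and 1.21 CPM in pirenzepine libraries. It had 6.51, 4.70, 3.55 and 4.92 CPM in ADTN libraries and 3.92, 4.70, 3.63 and 4.78 CPM in TPMPA libraries. The sides did not overlap at this low level, and the change was -1.04 ± 0.22 (adjusted p = 0.00895). GFRA2, the receptor subunit for the neuronal growth factor neurturin, averaged 40.5 ± 2.96 CPM with antagonists and 56.6 ± 3.25 CPM with ADTN or TPMPA, again with no overlap (change -0.48 ± 0.11, adjusted p = 0.0176, and 0.0501 without atropine 2 and 0.0803 without the 5 libraries highest in small structural RNA). SCRT2, a zinc-finger repressor of neurons, fell by 0.65 ± 0.12 (adjusted p = 0.00435).

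Further fallen genes, from no fixed list and mostly chosen after their values were seen, are given with their background. The splicing regulators SRRM3, CELF5 and RBFOX3 had changes of -0.46 ± 0.10 (adjusted p = 0.0124), -0.42 ± 0.09 (adjusted p = 0.0153) and -0.43 ± 0.10 (adjusted p = 0.0211). CACNG2 and CACNG3, auxiliary subunits of AMPA receptors, had changes of -0.30 ± 0.07 (adjusted p = 0.0276) and -0.33 ± 0.08 (adjusted p = 0.039). C1QL1 and C1QL3, secreted synaptic organisers, had changes of -0.44 ± 0.10 (adjusted p = 0.0153, and 0.0556 without atropine 2) and -0.39 ± 0.10 (adjusted p = 0.0361). Left-out libraries ended the calls of RBFOX3 (atropine 2, pirenzepine 2 or 4, ADTN 4 or TPMPA 2; adjusted p up to 0.0643) and CACNG2 (atropine 1 or 4, pirenzepine 2 or 3, ADTN 4, or TPMPA 2 or 3; up to 0.0686). They also ended those of CACNG3 (atropine 1, 2 or 4, pirenzepine 1 or 2, ADTN 4 or any TPMPA library; up to 0.107) and C1QL3 (atropine 1, 2 or 4, pirenzepine 2 or 4, ADTN 1, 2 or 4, or TPMPA 1, 3 or 4; up to 0.116). Limma voom did not call RBFOX3 (0.05), CACNG2 (0.05), CACNG3 (0.0857) or C1QL3 (0.0752), nor did the fit without a low-count filter call CACNG3 (0.0598) or C1QL3 (0.0561). CACNG3 was not called with the 4 groups alone (0.0734), nor C1QL3 without the 5 libraries highest in small structural RNA (0.0542). HEXIM1, an inhibitor of the elongation factor P-TEFb, averaged 119 ± 11.9 CPM with antagonists and 153 ± 19.7 CPM with ADTN or TPMPA (change -0.37 ± 0.07, adjusted p = 0.00534). IGF2, an insulin-like growth factor and the called member of 19 retinal peptides and growth signals, fell by 0.45 ± 0.12 (adjusted p = 0.038). Of all genes tested 1.02% were called. The IGF2 call was lost without atropine 2 or 4, pirenzepine 2, 3 or 4, ADTN 1 or 2, or TPMPA 1, 3 or 4 (adjusted p up to 0.125). It was also lost without a low-count filter (0.0556), by limma voom (0.0543) and with the 4 groups alone (0.0749). Leaving out the 5 libraries highest in small structural RNA ended it too.

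**Figure D3:**
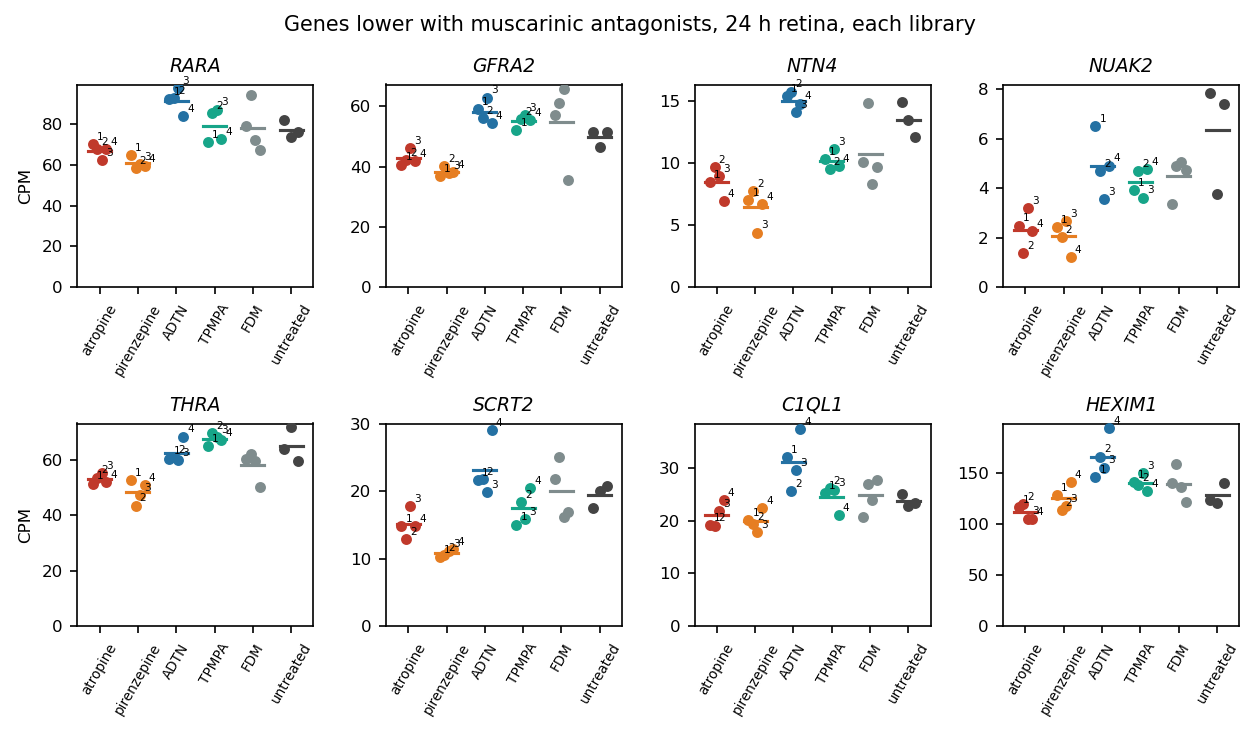
Points give CPM (linear axes from 0) of 8 fallen genes in each 24 h library, with replicate numbers for the injected groups, and lines give group means. RARA, GFRA2, NUAK2 and THRA show no overlap between antagonist points and ADTN or TPMPA points, as in GFRA2 at means of 40.5 and 56.6 CPM.

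Ganglion cell genes were lower with the pooled antagonists, with overlap between libraries of the sides. Their score, the mean log2(CPM + 1) of 13 markers, was 6.26 with antagonists (6.13 to 6.35) and 6.41 with ADTN or TPMPA (6.32 to 6.5), a difference of -0.15 (exact two-sided permutation test over 12870 splits of 8 against 8, p = 0.00186, adjusted p = 0.0186 over 10 scores). None of the 13 genes was called singly. Negative changes were seen in 11 and positive ones in 2, where 50.4% of all genes tested were positive. Among the 11 was POU4F2, a transcription factor of ganglion cells, at 14 ± 1.51 CPM with antagonists and 18.8 ± 3.36 CPM with ADTN or TPMPA (adjusted p = 0.156). The score's difference no longer passed without any of ADTN 1, 2 or 3 or TPMPA 3 (-0.14 to -0.15). With this score as a term in the model, an alternative chosen after seeing the data, 46 genes were called, 30 higher and 16 lower, of which 40 were among the 160. It kept 28 of the 97 risen and 12 of the 63 fallen genes. GLDN (adjusted p = 0.086), SOCS3 (0.127) and OPN4-1 (0.0878) were among the risen genes not called, and RARA (0.084), GFRA2 (0.189) and THRA (0.0878) among the fallen ones. Of the other called genes named, TNFRSF1A, ADGRD2, PADI3, CBFB, ITPKB, VDR, EZR, OCA2, STAT3, GADD45A, GADD45B, CROT, KDR, TNS3 and ARRDC3 passed in that fit. So did those that passed in every setting, and the rest did not (adjusted p up to 0.273). The score differs between the sides itself, so its part in these genes cannot be told apart from that of the drugs. The amacrine and horizontal cell score was 6.17 with antagonists and 6.27 with ADTN or TPMPA (exact permutation p = 0.0132, adjusted p = 0.066). The 2 antagonists were not alike in this score. Atropine libraries 1 to 4 had 6.08, 6.08, 6.08 and 6.17. Pirenzepine libraries 1 to 4 had 6.28, 6.28, 6.22 and 6.21, within the ADTN and TPMPA range of 6.20 to 6.33.

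The receptors and transmitter systems that the drugs act on showed no call in the pooled edgeR fit. None of 24 genes of muscarinic and acetylcholine signalling, 13 of dopamine or 26 of GABA and glycine passed, nor did any of 30 phototransduction, 25 BMP and TGF-beta, 27 Wnt, 47 oxidative phosphorylation or 66 ribosomal protein genes. Over all genes tested only 1.02% were called (0.616% rose and 0.4% fell). The absence of calls in lists this short therefore says little about their members. Changes were positive in 2 of the 47 oxidative phosphorylation genes (median -0.08), 2 of the 66 ribosomal protein genes (median -0.09) and 7 of the 30 phototransduction genes (median -0.04), where 50.4% of all genes were positive. CHRM3, a Gq-coupled muscarinic receptor, averaged 13.0 ± 1.93 CPM with antagonists and 10.5 ± 2.1 CPM with ADTN or TPMPA (adjusted p = 0.314, though called in 1 of 29 alternatives). CHRM2, a Gi-coupled one, averaged 5.14 ± 0.82 CPM with antagonists and 4.09 ± 0.83 CPM with ADTN or TPMPA (adjusted p = 0.278). DRD4, a dopamine receptor of photoreceptors, averaged 243 ± 36.2 CPM with antagonists and 275 ± 38.1 CPM with ADTN or TPMPA (adjusted p = 0.268). The median 95% interval of a log2 change over all genes was ± 0.222. This interval varies by gene, so small changes of these receptors could have been missed. Among 37 immediate early genes CREM and GADD45B rose; EGR1, a marker of amacrine cell activity, averaged 81.0 ± 27.7 CPM with antagonists and 67.8 ± 34.6 CPM with ADTN or TPMPA (adjusted p = 0.732). GADD45B, a stress-response gene, rose by 0.60 ± 0.15 (adjusted p = 0.0289), a call lost without atropine 2 or 4, pirenzepine 2 or 4, ADTN 4, or TPMPA 2, 3 or 4 (adjusted p up to 0.105), by limma voom (0.0854) and with the 4 groups alone (0.089). Among 25 Mueller glia genes CD44 rose and CYP26A1 fell. CD44, a hyaluronan receptor, changed by 0.99 ± 0.23 (adjusted p = 0.0229). That call was lost without atropine 2 or 4, pirenzepine 2, ADTN 1 or TPMPA 3 (adjusted p up to 0.0791) and by limma voom (0.072). GFAP averaged 47.6 ± 23.0 CPM with antagonists and 24.7 ± 6.75 CPM with ADTN or TPMPA (adjusted p = 0.0932, though called in 4 of 29 alternatives).

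Split by drug, pirenzepine gave more calls than atropine in the model of all libraries, but not in every alternative. Pirenzepine against ADTN gave 263 calls (1.67% of genes), 155 higher (0.984%) and 108 lower (0.686%), and against TPMPA 170 (1.08%), 117 higher (0.743%) and 53 lower (0.337%). Atropine against ADTN gave 55 (0.349%), 23 higher (0.146%) and 32 lower (0.203%). Atropine against TPMPA gave 0 calls by edgeR (1360 genes, 8.64%, at an unadjusted p under 0.05), 10 by DESeq2 and 0 by limma voom. Fitting only the groups compared gave 3 calls for pirenzepine and 4 for atropine against ADTN, and 90 for atropine against TPMPA, and DESeq2 gave 412 and 299 against ADTN. These pairs share libraries, and the 160 genes were chosen from all of them, so their values are given only side by side. The median log2 change of the 97 risen genes was 0.41 for atropine against either drug, and 0.84 and 0.82 for pirenzepine against ADTN and TPMPA. That of the 63 fallen genes was -0.35 and -0.26 for atropine against ADTN and TPMPA, and -0.54 and -0.41 for pirenzepine. The count of 263 fell to 86 without pirenzepine 2, 100 without pirenzepine 4, 124 without ADTN 4, 138 without pirenzepine 3, 149 without ADTN 2 and 173 without ADTN 1, and was 434 without pirenzepine 1. The count of 170 was 46 without pirenzepine 2, 57 without TPMPA 3, 72 without TPMPA 4, 94 without pirenzepine 3, 113 without TPMPA 1 and 265 without pirenzepine 1. The count of 55 was 5 to 15 without atropine 2, 3 or 4 or ADTN 1, 2 or 3, and 258 without ADTN 4.

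Tested directly, atropine and pirenzepine differed in 31 genes (0.197%), 3 higher (0.0191%) and 28 lower (0.178%) with atropine. Of the 160 genes only MCM3, TNS3, ARRDC3 and HSD17B12 were among them, all of them lower with atropine. ADTN and TPMPA differed in 30 genes (0.191%), 13 higher (0.0826%) and 17 lower (0.108%) with ADTN, FAM83B and OPN4-1 among the 160. These direct pairs were not rerun without single libraries. VIP, a peptide transmitter of amacrine cells followed whatever its result, differed within both sides. VIP had 16.5, 15.2, 21.0 and 25.0 CPM in atropine libraries and 38.3, 71.1, 70.8 and 41.2 CPM in pirenzepine libraries. It had 17.2, 11.6, 15.1 and 18.8 CPM in ADTN libraries and 38.0, 23.1, 36.6 and 39.6 CPM in TPMPA libraries. Every atropine library lay below every pirenzepine one (log2 change -1.51 ± 0.23, adjusted p = 0.000747) and every ADTN library below every TPMPA one (-1.14 ± 0.23, adjusted p = 0.0192), while the pooled change of 0.50 ± 0.16 did not pass (adjusted p = 0.118). UTS2B, a urotensin-related peptide, had 3.06 to 6.07 CPM in atropine libraries, 10.7 to 22.8 CPM in pirenzepine libraries, 1.88 to 3.62 CPM in ADTN libraries and 8.11 to 14.6 CPM in TPMPA libraries. Its changes were -1.99 ± 0.33 for atropine against pirenzepine (adjusted p = 0.00194) and -2.09 ± 0.34 for ADTN against TPMPA (adjusted p = 0.00142). The pooled contrast of UTS2B had an adjusted p = 0.106 and passed in 2 of 29 alternatives. FOS, a transcription factor induced by depolarisation, averaged 42.1 ± 28.0 CPM with antagonists and 30.0 ± 5.23 CPM with ADTN or TPMPA (adjusted p = 0.621), with pirenzepine 2 to 4 at 62.9 to 85.3 CPM.

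**Figure D4:**
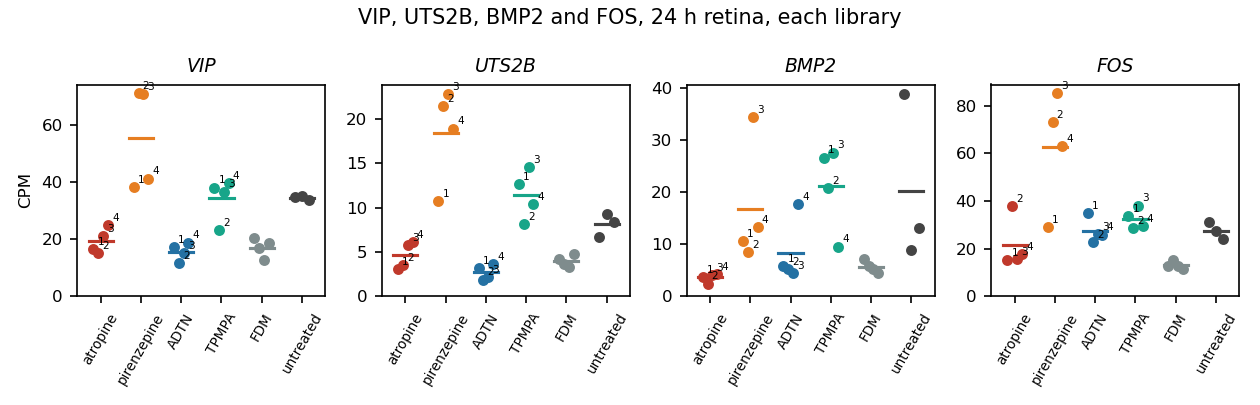
Points give CPM (linear axes from 0) of 4 followed genes in each 24 h library, and lines give group means. For VIP and UTS2B all pirenzepine points lie above all atropine points and all TPMPA points above all ADTN points, so that each side of the pooled comparison holds a high and a low drug; BMP2 and FOS did not pass the pooled test.

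Levels in the 4 FDM libraries, whose birds wore diffusers for the same time without injection, were set beside these values as a description. Of the 97 risen genes, 96 were above the FDM mean with atropine and 95 with pirenzepine, against 64 with ADTN and 61 with TPMPA. Over all genes tested the shares above the FDM mean were 49.6% with atropine, 49.4% with pirenzepine, 51.1% with ADTN and 49.1% with TPMPA. The median log2 difference from FDM over the risen genes was 0.47 with atropine and 0.90 with pirenzepine, and 0.15 with ADTN and 0.09 with TPMPA. Of the 63 fallen genes, 60 were below the FDM mean with atropine and 63 with pirenzepine, against 9 with ADTN and 20 with TPMPA. The genes were chosen for differing between these groups, so nothing is read from these counts. Drug and injection cannot be told apart in the differences from FDM.

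The same drugs at 4 h, after a single injection, gave a larger list in different libraries: 1255 genes (7.97%) were called, 497 higher with antagonists (3.16%) and 758 lower (4.81%). Of the 97 genes that rose at 24 h, 53 (54.6%) also rose at 4 h, which is 10.7% of the 497 genes higher at 4 h. Of the 63 that fell, 21 (33.3%) also fell at 4 h, which is 2.77% of the 758 genes lower at 4 h. None was called in the opposite direction. The sign was shared by 91 of the 97 (93.8%) and 62 of the 63 (98.4%), where 58.6% of all genes shared it and 50% of all genes were positive at 4 h. GLDN changed by 2.80 ± 0.53 at 4 h (adjusted p = 0.00168), OCA2 by 0.91 ± 0.13 (adjusted p = 5.94e-05) and NTN4 by -0.80 ± 0.13 (adjusted p = 0.000513). TNFRSF11B (0.88 ± 0.39, adjusted p = 0.142), MYD88 (0.29 ± 0.15, adjusted p = 0.234) and CD44 (-0.02, adjusted p = 0.961) did not pass at 4 h. For no gene did the 24 h and 4 h differences themselves differ by edgeR's test (smallest adjusted p = 0.132), with 1739 genes (11%) at an unadjusted p under 0.05, 6 calls by DESeq2 and 0 by limma voom.

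**Figure D5:**
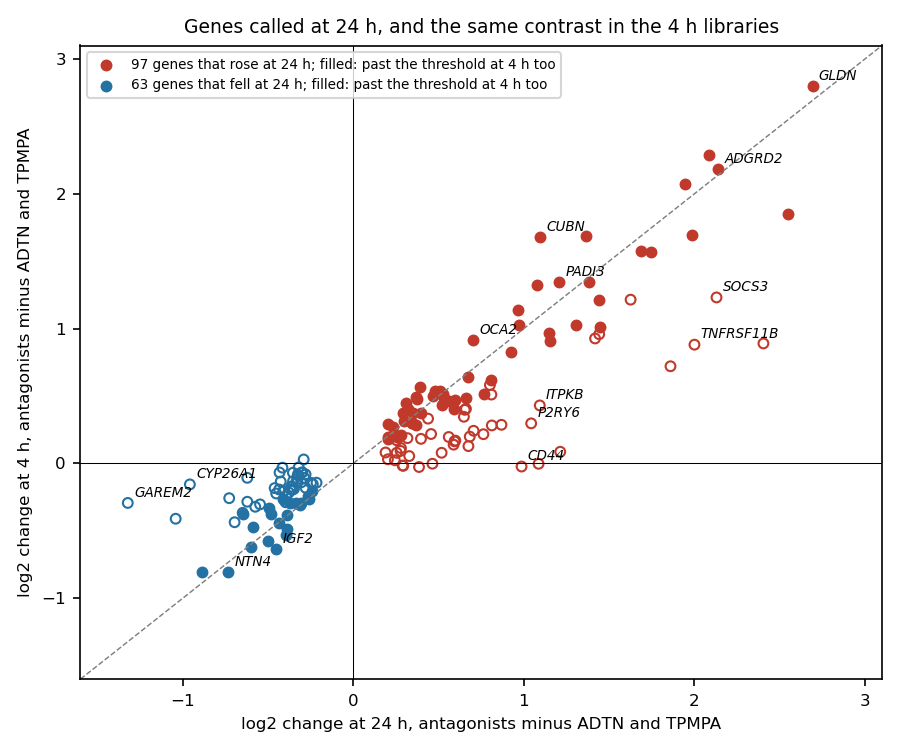
Each point is a gene called at 24 h, with its log2 change (antagonists minus ADTN and TPMPA) at 24 h on the x axis and at 4 h on the y axis; filled points also passed at 4 h, and the dashed line marks equal changes. Of the 97 risen genes 91 lie above 0 at 4 h, and GLDN and ADGRD2 lie near the line while CD44 is near 0 at 4 h.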

How the data were processed

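Whole-retina RNA-seq was analysed from the deposited raw counts, 1 per transcript and library, with coordinates and lengths in bases as deposited by the authors (another unit, used only for gene positions and counts per base). Per the submitters' processing notes, Trimmomatic 0.36, HISAT2 2.1, HOMER, edgeR, limma and the build galGal5 were used, with roles and read filters not given in the sources used here. Per gene symbol the transcript with the largest summed count was kept (24599 of 38118 entries). filterByExpr (minimum count 10, total 15) left 15746 genes. Counts were TMM-normalised and fitted in edgeR 4.0.16 (robust quasi-likelihood, R 4.3.3) with a mean for each of 14 groups over 54 libraries; p-values are two-sided and Benjamini-Hochberg adjusted over all genes at 0.05. Pooled contrasts weight drugs equally. Log2 changes have ± SE, and CPM have ± SD.

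The rule for named genes took the 15 largest rises and 15 largest falls past the threshold with a symbol, at least 2 CPM, and both antagonist means on one side of both other means, plus list examples and followed genes; the text gives part of them. One followed gene is not analysed here, and a few results are not reported here. The comparison, gene lists and tests were chosen with earlier results of these data known. On simulated data, 64.2%, 94% and 98.5% of genes changed by 0.5, 1 and 2 on the log2 scale were recovered in the pooled 24 h contrast. Counts were drawn independently for each gene at its fitted spread, with changes only in genes of at least 2 CPM. Shifts shared by many genes of a library were not simulated, so recovery in the real libraries may be lower. The alternatives were DESeq2 1.42.0, limma 3.58.1 (voom), RLE scaling, no filter, covariates, a replicate block, summed transcripts, only the groups compared, and leaving out libraries. No libraries were identical.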

Additional observations from a re-analysis of the deposited data

Results flagged for a closer look

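Single libraries stood apart within their group of 4 in 30 of 260 groups of values tested by a gap test; chance gives about 1 in 20, or 13.0. No explanation was tested. Genes are given in CPM, and cell type scores as mean log2(CPM + 1).

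Pirenzepine library 1 was low in its group for CD274 (1.51), SST (1.42), STAT3 (348) and the bipolar cell score (6.60). It was high for GAREM2 (2.43), KIRREL1 (77.8) and the vessel (4.36) and erythrocyte (4.40) scores. Pirenzepine library 3 was high for EGR1 (137). Pirenzepine library 4 was high for NTS (174) and low for the ganglion cell score (6.13). Atropine library 2 was low for IGF2 (9.06) and high for FOS (37.8) and the erythrocyte score (3.60). Atropine library 3 was high for CYP26A1 (13.0) and had the largest total count (24.8 M), and atropine library 4 was high for the amacrine and horizontal cell score (6.17).

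ADTN library 4 was high for CYP26A1 (11.9), ERMN (222), GADD45A (44.3), NTS (173) and BMP2 (17.7), and low for DRD1 (81.8). ADTN library 3 was high for ANGPTL7 (20.8), whose gene model overlaps MTOR on the opposite strand, and ADTN library 2 for the leukocyte score (2.82). TPMPA library 2 was high for SDC1 (18.2), OAF (76.3), EGR1 (115) and DRD2 (6.49), and TPMPA library 4 for CORIN (7.73).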

How the results depend on the processing

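The count of 160 genes became 308 with DESeq2, 73 with limma voom (32 higher, 41 lower), 46 with the ganglion cell score as a term and 1526 without the 5 libraries highest in small structural RNA (124 of them shared; ADTN then had a single library, assumed to vary like the other groups). The last 2 were chosen after seeing the data. Fitting only the groups compared gave 114 (21 higher, 93 lower), and 53 to 306 passed with a library left out. The replicate block gave 217 (114 higher, 103 lower). Same-number correlations of deviations ran from -0.192 to 0.381 (median 0.0497, 11 of 24 over 0.1). Different-number ones ran from -0.467 to 0.592 (median -0.011, 17 of 72 over 0.1), and 7 of 16 libraries correlated best with their own number. The labels give these samples only a shared number, and these values do not settle whether it marks a block. The 24 h minus 4 h count of 0 was 6 with DESeq2 and 0 to 1 with a library left out. For atropine minus ADTN, 55 became 31 without a filter, 286 with the replicate block, 11 with small RNA and 93 with total count as a term, 36 with summed transcripts, 299 with DESeq2, 4 with only the groups compared and 5 to 258 with a library left out. For atropine minus TPMPA, 0 became 2 with the block, 3 with small RNA as a term, 10 with DESeq2 and 90 with only the groups compared. For pirenzepine minus ADTN, 263 became 412 with DESeq2, 3 with only the groups compared and 86 to 434 with a library left out. For pirenzepine minus TPMPA, 170 became 338 with DESeq2, 84 with limma voom and 46 to 265 with a library left out. Of 10 scores 1 passed, 0 by summed CPM and 0 to 2 with a library left out. Uncalled values changed sign: NTS to -0.025 with the ganglion score and -0.0866 without the 5 libraries, and CHRM4 to 0.0556 with the ganglion score. With a library left out, CHRM4 ran from -0.0997 to 0.0252 (positive without atropine 1 or pirenzepine 3). DRD2 ran from -0.189 to 0.00681 and the vessel score difference from -0.0811 to 0.399, each changing sign only without pirenzepine 1. The cause of these changes was not tested. Other planned settings kept the pooled count within 1.5 times (135 without a filter to 222 with small RNA as a term). Total counts from 9.97 M limit small changes of low genes.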

Other observations

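Metabolic and growth-related genes outside the groups above were also called at 24 h. NFE2L2, the transcription factor of the antioxidant response, averaged 134 ± 30.0 CPM with antagonists and 102 ± 12.9 CPM with ADTN or TPMPA, a log2 change of 0.39 ± 0.09 (edgeR quasi-likelihood test, adjusted p = 0.0271). The NFE2L2 call was lost without atropine 2 or 4, pirenzepine 3 or 4, ADTN 4, or TPMPA 3 or 4 (adjusted p up to 0.104), by limma voom (0.0539), and in a fit of the 4 groups alone (0.142). INSIG2, which holds back cholesterol synthesis, rose by 0.31 ± 0.08 (adjusted p = 0.038, up to 0.132 without a library: atropine 2 or 4, pirenzepine 2, 3 or 4, ADTN 1, 2 or 4, or TPMPA 1, 3 or 4), and CROT, a peroxisomal carnitine acyltransferase, by 0.47 ± 0.09 (adjusted p = 0.00649, but 0.0749 with the 4 groups alone). INSIG2 was not called by limma voom (0.0687) or with the 4 groups alone (0.082). HSD17B7, an enzyme of cholesterol synthesis and the single called gene of 27 in its list, rose by 0.39 ± 0.10 (adjusted p = 0.0289, up to 0.0975 without a library: atropine 4, pirenzepine 3 or 4, ADTN 2 or 3, or TPMPA 3 or 4, and 0.0949 with the 4 groups alone). KDR, the main VEGF receptor, which is also present outside vessels in retina, averaged 397 ± 52.2 CPM with antagonists and 324 ± 42.8 CPM with ADTN or TPMPA (0.29 ± 0.08, adjusted p = 0.0429) and was the single called gene of 23 vessel genes. Of all genes tested 1.02% were called, and nothing is read from single calls in lists of this size. The KDR call was lost without atropine 2 or 4, pirenzepine 2, 3 or 4, ADTN 1, 2 or 4, or TPMPA 3 or 4 (adjusted p up to 0.133), by limma voom (0.0593) and with the 4 groups alone (0.142). NFIX, a transcription factor of late retinal progenitors and neurons, averaged 67.9 ± 11.2 CPM with antagonists and 89.6 ± 9.88 CPM with ADTN or TPMPA (adjusted p = 0.026, up to 0.0702 without a library: atropine 2 or 4, pirenzepine 2, 3 or 4, ADTN 2 or TPMPA 3), and ERMN, a cytoskeletal protein of oligodendrocytes in mammals, averaged 112 ± 23.8 CPM with antagonists and 167 ± 33.6 CPM with ADTN or TPMPA (adjusted p = 0.00649).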
